A study of Homo sapiens with 12 samples.

Results

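Transcripts of 41 human genes of the lysosome and of autophagy were followed through 12 RNA sequencing libraries of 2 acute myeloid leukaemia lines. The genes were taken by symbol from a table of 34626 genes; all 41 were listed, and all 41 were expressed highly enough to be tested. By role they comprised 19 hydrolases and other soluble lysosomal proteins, 5 lysosomal membrane proteins, 5 proton pump subunits, 2 transcription factors of lysosomal genes and 10 autophagy genes. The groups were MV4-11 cells with a short hairpin RNA against CYTH4 (shCYTH4), MV4-11 cells with a control hairpin (shControl), THP-1 cells with shCYTH4 and THP-1 cells with shControl, with 3 libraries in each. Both lines are established human leukaemia lines of monocytic character that carry MLL fusions, labelled as acute myeloid leukaemia of bone marrow, and CYTH4 encodes cytohesin 4, which activates small ARF GTPases in blood cells. The labels give neither the hairpin sequence nor the time after its delivery. Since nothing in them shows that replicates were grown apart, all p-values measure the spread between these libraries, which may be technical.

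Lysosomes are acidic organelles in which cathepsins, glycosidases and lipases break down protein, sugar chains and lipid. A proton pump, the V-ATPase, keeps the lumen acid, and membrane proteins such as the LAMPs and the cholesterol transporter NPC1 line the organelle and carry its products out. Autophagy delivers the cell's own contents to lysosomes: the ULK1 kinase starts the process, ATG proteins attach LC3 and GABARAP proteins to the growing membrane, and receptors such as SQSTM1 (p62) bring in cargo. The transcription factors TFEB and TFE3 switch on many of these genes by binding promoter elements built round the letters CACGTG, and monocytes and macrophages are rich in lysosomes.

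Depth was 71730093 to 77782719 estimated counts per library. The monocyte marker LYZ, lysozyme, averaged 1119 ± 25.5 FPKM in MV4-11 shCYTH4 libraries against 1707 ± 129 in MV4-11 shControl libraries, and 705 ± 49.6 FPKM in THP-1 shCYTH4 libraries against 331 ± 53.1 in THP-1 shControl libraries (SD, n = 3 each). FCGR1A, a monocyte Fc receptor of the same list of 8 genes, had the opposite signs, with 45.1 ± 5.87 FPKM in MV4-11 shCYTH4 against 33.8 ± 3.94 in MV4-11 shControl libraries, and 45.0 ± 6.83 FPKM in THP-1 shCYTH4 against 67.7 ± 5.92 in THP-1 shControl libraries. Of 4 T cell markers 2 were found, and these reached at most 0.0373 FPKM in any library. The highest values of the B cell and megakaryocyte lists were 1.19 FPKM (CD79A) and 1.33 FPKM (ITGA2B). Those of the erythroid, epithelial and fibroblast lists were 0.42, 0.646 and 0.175 FPKM. FPKM is a level per length of transcript, so that genes can be compared, and scaled to library depth. CYTH4 had 15.7, 15.0 and 15.7 FPKM in the THP-1 shCYTH4 libraries against 25.7, 32.2 and 21.0 in the THP-1 shControl libraries (log2 change -0.89, SE 0.19, edgeR adjusted p = 0.0338). In MV4-11 it had 15.5, 20.7 and 22.3 FPKM in the shCYTH4 libraries against 20.9, 16.0 and 18.1 in the shControl libraries (log2 change 0.01, SE 0.19, edgeR adjusted p = 0.988), so MV4-11 groups go by their labels and no fall of the targeted transcript was measured there. Within groups, THP-1 shCYTH4 replicate 3 differed from replicates 1 and 2 by a median of 0.287 and 0.293 on the log2 scale over all tested genes, against 0.103 between those; MV4-11 shCYTH4 replicate 1 differed from replicates 2 and 3 by 0.253 and 0.277, against 0.0937 between those. Values without these libraries are given for some genes whose call or change moved with them. In RNA from whole cultures, fewer cells of a kind and less RNA per cell cannot be told apart.

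The 41 genes spanned mean levels of 0.735 FPKM (WIPI1) to 172 FPKM (GRN) over the 12 libraries, with a median of 13.7 FPKM. The soluble proteins supplied most of the transcript, led by GRN, the progranulin precursor of lysosomal granulins, and PSAP, the precursor of the saposins that help break down sphingolipids. GRN had 114, 141 and 149 FPKM in MV4-11 shCYTH4, 149, 127 and 126 in MV4-11 shControl, 226, 251 and 208 in THP-1 shCYTH4 and 181, 210 and 188 in THP-1 shControl libraries. Among membrane proteins LAMP1 was the most abundant, among pump subunits ATP6V1B2, and among autophagy genes GABARAP. In 38 genes every library had at least 1 FPKM; the exceptions were GABARAPL1, WIPI1, which passed the expression filter (at least 1 FPKM in 3 libraries) through MV4-11 shCYTH4 alone, and the protease CTSL, which passed it through THP-1 and stayed near 0.2 FPKM in MV4-11. The gene order by level was similar in the lines (Spearman rho 0.89 over the 41 genes between the shControl means, a description of genes that share libraries).

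**Figure D1:**
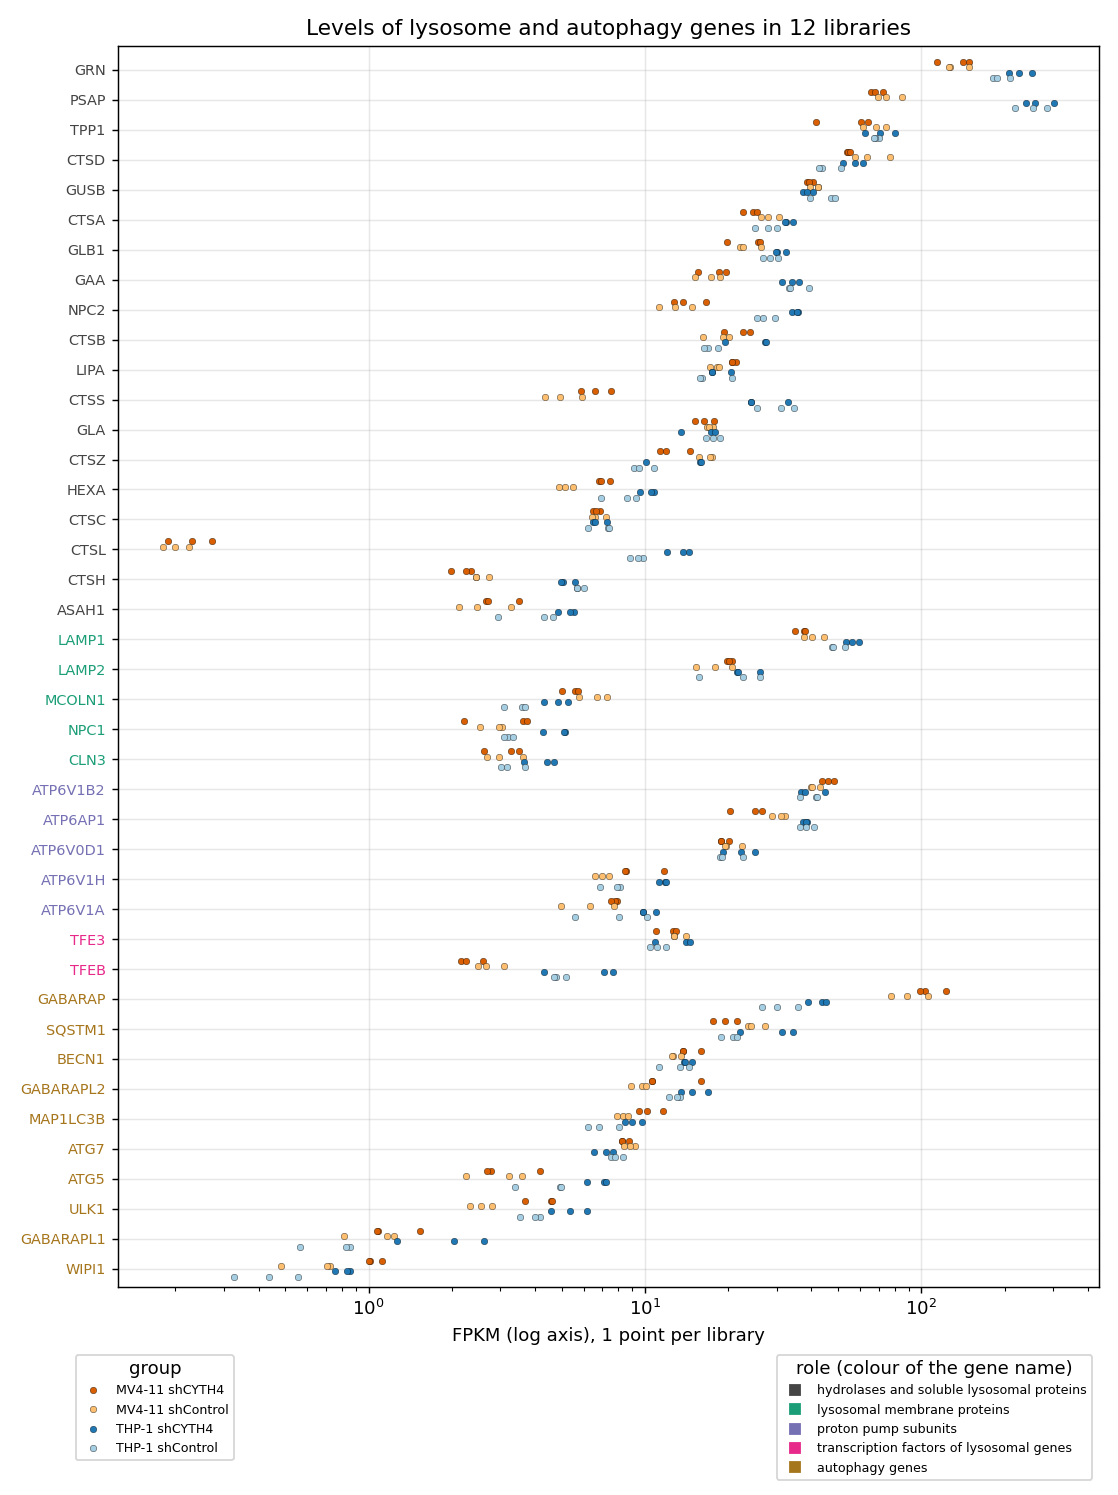
FPKM (log axis) of the 41 genes, grouped by role and ordered by mean level, with 1 point per library and the 4 groups in colour. GRN and PSAP lie furthest right, WIPI1 furthest left, and CTSL, near 0.2 FPKM in MV4-11 and above 8 in THP-1, is the gene whose lines lie furthest apart.

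Promoter sequence was available for 32 of the 41 genes, from RefSeq for GRCh38.p14, as 250 bases before to 50 bases after the annotated start. ASAH1, ATP6V1A, ATP6V1B2, ATP6V1H, CTSB, CTSS, HEXA, LAMP2 and PSAP had no entry. The letters TCACGTG, sought on both strands and overlapping the shorter CACGTG, were found in 7 of the 32 promoters (21.9%), against 1043 of 27305 promoters of the same length (3.82%); CACGTG alone was in the same 7 (21.9%), against 7.43%. The 7 genes are ATP6V0D1, CLN3, CTSA, CTSD, GAA, LAMP1 and MCOLN1. Shown are LAMP1, which had the most matches, MCOLN1 and CTSD, whose values differ between the lines, and GABARAPL1, the gene called in THP-1, which had none. Capitals mark CACGTG; the strand is that of the gene, and matches carry no evidence of binding.
LAMP1, chr13:113296989-113297288, plus strand: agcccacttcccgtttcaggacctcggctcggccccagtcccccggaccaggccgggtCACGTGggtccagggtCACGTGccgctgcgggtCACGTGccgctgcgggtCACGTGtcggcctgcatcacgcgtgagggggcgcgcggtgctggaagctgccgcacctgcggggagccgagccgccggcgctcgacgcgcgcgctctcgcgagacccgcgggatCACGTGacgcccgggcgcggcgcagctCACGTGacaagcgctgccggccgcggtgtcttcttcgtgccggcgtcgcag
MCOLN1, chr19:7522374-7522673, plus strand: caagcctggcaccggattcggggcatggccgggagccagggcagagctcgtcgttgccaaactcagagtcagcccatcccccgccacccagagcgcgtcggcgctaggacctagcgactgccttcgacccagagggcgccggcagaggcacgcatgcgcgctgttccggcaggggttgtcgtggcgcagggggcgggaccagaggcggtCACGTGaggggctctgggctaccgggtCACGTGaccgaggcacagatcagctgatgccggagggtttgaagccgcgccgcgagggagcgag
CTSD, chr11:1763878-1764177, minus strand: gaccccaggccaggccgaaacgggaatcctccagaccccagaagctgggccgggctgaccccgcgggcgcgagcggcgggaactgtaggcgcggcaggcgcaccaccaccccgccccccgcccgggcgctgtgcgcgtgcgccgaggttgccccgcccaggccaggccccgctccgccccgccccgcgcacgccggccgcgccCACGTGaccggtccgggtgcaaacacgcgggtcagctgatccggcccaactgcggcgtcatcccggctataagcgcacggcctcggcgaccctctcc
GABARAPL1, chr12:10212627-10212926, plus strand: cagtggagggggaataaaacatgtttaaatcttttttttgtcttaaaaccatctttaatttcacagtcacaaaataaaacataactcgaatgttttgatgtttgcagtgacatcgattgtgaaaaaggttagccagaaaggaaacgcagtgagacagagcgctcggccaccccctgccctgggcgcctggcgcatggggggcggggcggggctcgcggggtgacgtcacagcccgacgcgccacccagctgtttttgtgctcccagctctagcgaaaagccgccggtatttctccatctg
LAMP1 held 6 copies of CACGTG, MCOLN1 held 2 and CTSD 1. The copies of MCOLN1 began 41 and 14 bases before the start, and that of CTSD 47 bases before it.

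In THP-1, shCYTH4 libraries were set against shControl libraries. Of the 41 genes, 1 rose (GABARAPL1) and 0 fell at an adjusted p under 0.05 in edgeR's quasi-likelihood test, while 1.65% of the 12350 tested genes were called (0.607% higher and 1.04% lower). DESeq2 called 2, GABARAPL1 and ATP6V1H, against 5.27% of all genes. The median log2 change of the 41 was 0.13, with 28 above 0, against -0.01 and 48.8% above 0 over all tested genes. With single libraries left out the median of the 41 lay between 0.086 and 0.21. Per library, the median log2 difference of the 41 from the shControl mean was 0.127, 0.223 and 0.0529 in THP-1 shCYTH4 replicates 1 to 3. In THP-1 shControl replicates 1 to 3 it was -0.0579, 0.118 and -0.0462, so the groups overlapped. In FPKM, 19 of the 41 (46.3%) had all 3 shCYTH4 libraries above all 3 shControl libraries, against 17.1% of all tested genes, and 1 (CTSH) had them all below, against 6.63%. By role, the median log2 change was 0.34 for the autophagy genes (9 of 10 above 0), 0.25 for the membrane proteins (5 of 5), 0.20 for the 2 transcription factors, 0.02 for the pump subunits and -0.0035 for the hydrolases and soluble proteins (9 of 19). In 39 further autophagy genes, part of the wider list given below, the median was lower, at 0.15 (28 above 0). Of those 39, 10.3% had an unadjusted edgeR p under 0.05, against 16.0% of all tested genes. Without replicate 3 of THP-1 shCYTH4, 4 genes were called, all higher (GABARAPL1, CTSZ, SQSTM1 and CTSB), against 6.72% of all genes tested then. Leaving out THP-1 shCYTH4 replicate 1 or replicate 2 instead lowered the share of all genes called, to 0.123% and 0.237%. Without replicate 1 of MV4-11 shCYTH4, GABARAPL1 and ATP6V1H were called, against 2.8%.

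In MV4-11 the same comparison called 0 of the 41 genes with edgeR, against 1.13% of all tested genes; 12 (29.3%) had an unadjusted p under 0.05, as did 13.9% of all tested genes, and DESeq2 called 1, ULK1, against 3.66% of all genes. The median log2 change of the 41 was -0.01, with 20 above 0, against 0.00 over all genes. In FPKM, 9 genes (22%) had all shCYTH4 libraries above all shControl libraries and 7 (17.1%) had them all below, against 16.0% and 8.84% of all tested genes. Median changes by role were 0.15 for the autophagy genes (8 of 10 above 0), 0.09 for the pump subunits and -0.06 for the membrane proteins. They were -0.07 for the hydrolases and soluble proteins and -0.25 for the transcription factors. Per library, the median log2 difference of the autophagy genes from the shControl mean was 0.384, 0.0558 and 0.0476 in MV4-11 shCYTH4 replicates 1 to 3. In MV4-11 shControl replicates 1 to 3 it was 0.155, -0.11 and 0.0197, so the groups overlapped. Without MV4-11 shCYTH4 replicate 1, ULK1 alone was called, against 0.931% of all genes; without THP-1 shCYTH4 replicate 3, which enters the shared estimate of the spread, ULK1 and CTSZ were called, against 3.35%.

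**Figure D2:**
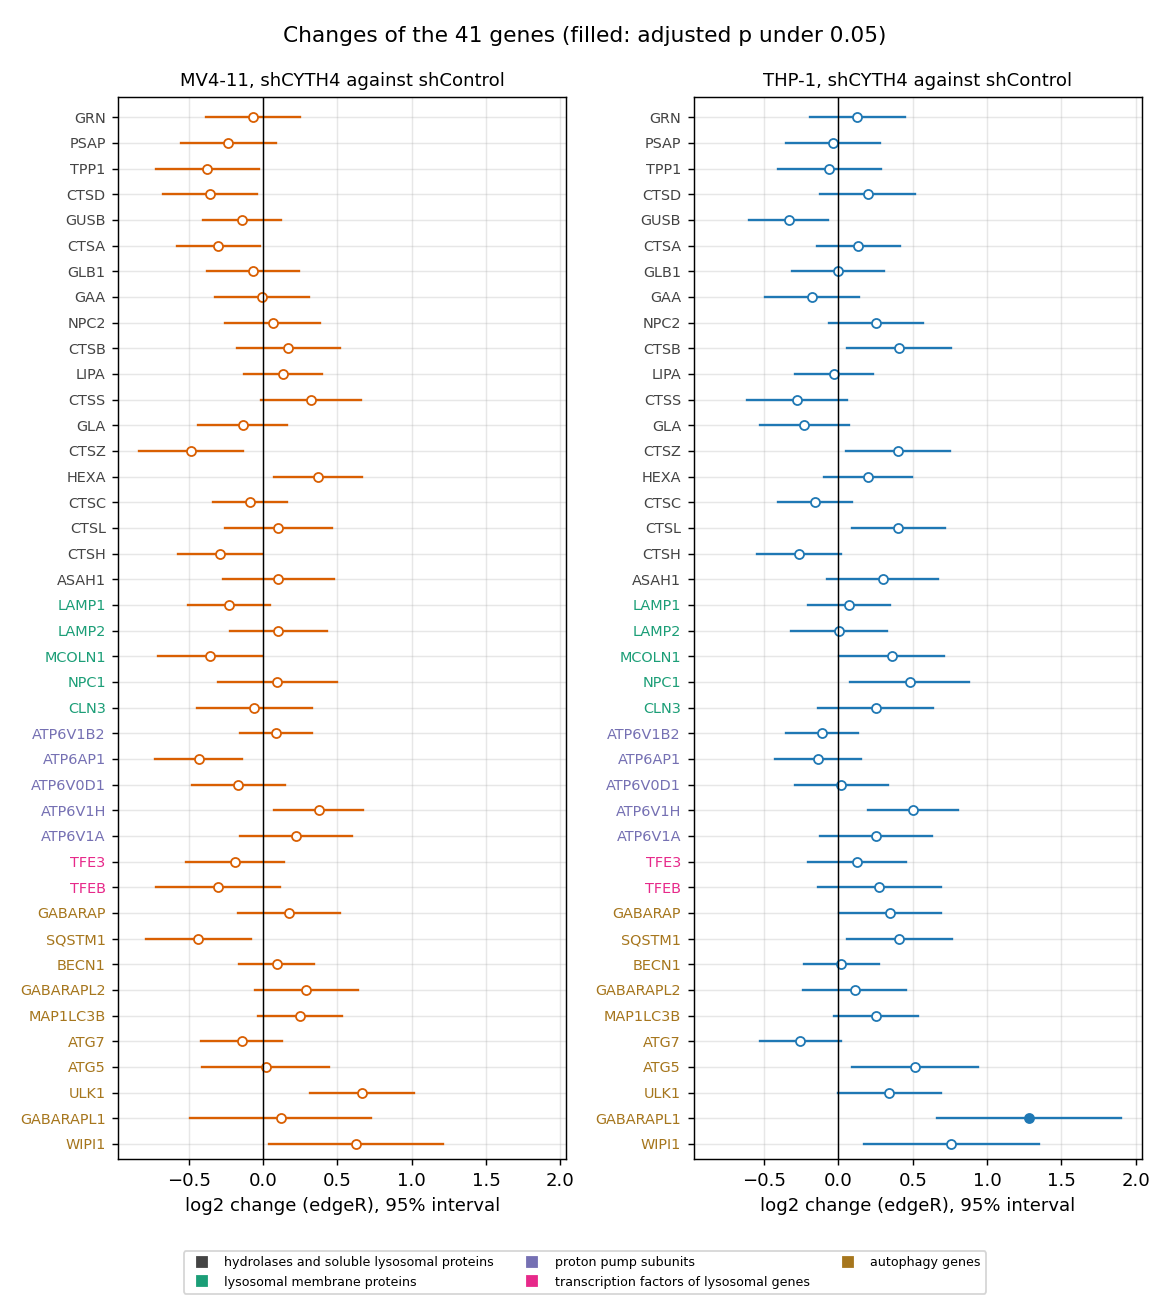
Log2 change (shCYTH4 against shControl) of each of the 41 genes in MV4-11 (left) and THP-1 (right), with 95% intervals from edgeR; filled points have an adjusted p under 0.05. GABARAPL1 in THP-1, at 1.28, is the only filled point, and 9 of the 10 autophagy genes in THP-1 lie above 0.

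The autophagy genes include the ubiquitin-like proteins that coat the autophagosome. GABARAPL1 (ENSG00000139112, chromosome 12, 10212458 to 10223128, plus strand) rose in THP-1: it had 2.62, 2.05 and 1.27 FPKM in shCYTH4 libraries against 0.858, 0.828 and 0.563 in shControl libraries. The groups did not overlap, and replicate 3 was the lowest shCYTH4 library. The fold was 2.43 (log2 change 1.28, SE 0.29, edgeR adjusted p = 0.0426). The change lay between 0.74 and 1.54 in all 22 alternative settings, but the call was lost in 10 of them, with an adjusted p of up to 0.217 without THP-1 shCYTH4 replicate 1. Without replicate 3 the change was 1.54 (adjusted p = 0.00412). In MV4-11 it had 1.54, 1.08 and 1.07 FPKM in shCYTH4 libraries against 1.16, 0.818 and 1.24 in shControl libraries (log2 change 0.12, edgeR adjusted p = 0.889), groups that overlapped.

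The other 3 measured members of this family did not pass the test in either line. GABARAP, the most abundant, had 39.0, 43.6 and 45.1 FPKM in THP-1 shCYTH4 libraries against 30.2, 35.7 and 26.5 in THP-1 shControl libraries (log2 change 0.35, SE 0.16, edgeR adjusted p = 0.308). MV4-11 cells had 123, 103 and 99.3 FPKM of GABARAP in shCYTH4 libraries against 105, 77.9 and 88.5 in shControl libraries (log2 change 0.17, adjusted p = 0.664). MAP1LC3B, the LC3 protein most used as an autophagosome marker, had a log2 change of 0.25 in both lines (adjusted p = 0.378 in THP-1 and 0.413 in MV4-11). GABARAPL2 had a log2 change of 0.11 in THP-1 and 0.29 in MV4-11 (edgeR adjusted p = 0.823 and 0.445). Without MV4-11 shCYTH4 replicate 1 the MV4-11 change of GABARAPL2 was 0.081. As a share of the summed FPKM of these 4 genes, GABARAP made up 81.9% ± 0.954 in MV4-11 shCYTH4 and 82.5% ± 1.75 in MV4-11 shControl libraries, and 62.0% ± 0.728 in THP-1 shCYTH4 and 59.6% ± 3.78 in THP-1 shControl libraries (SD, n = 3 each). GABARAPL1 made up 1.74% to 4.12% in THP-1 shCYTH4 against 1.22% to 1.63% in THP-1 shControl libraries, so it remained the smallest contributor.

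ULK1 (ENSG00000177169, chromosome 12, 131894622 to 131923150, plus strand), the kinase that starts autophagy, had 3.70, 4.57 and 4.60 FPKM in MV4-11 shCYTH4 libraries against 2.80, 2.32 and 2.55 in MV4-11 shControl libraries. The groups did not overlap, but the change missed the threshold (log2 0.67, SE 0.16, fold 1.59, edgeR adjusted p = 0.0613); 6 of 22 alternative settings called it. In THP-1 it had 5.36, 4.58 and 6.20 FPKM in shCYTH4 libraries against 3.54, 4.17 and 4.01 in shControl libraries (log2 0.34, adjusted p = 0.317). WIPI1, a lipid-binding protein of the forming autophagosome, lay near the expression filter. Its values were 0.859, 0.755 and 0.835 FPKM in THP-1 shCYTH4 libraries against 0.435, 0.558 and 0.326 in THP-1 shControl libraries (log2 0.76, SE 0.28, edgeR adjusted p = 0.183). In MV4-11 they were 1.01, 1.00 and 1.12 FPKM in shCYTH4 libraries against 0.723, 0.484 and 0.705 in shControl libraries (log2 0.62, adjusted p = 0.326). The 3 MV4-11 shCYTH4 libraries alone took WIPI1 past the expression filter, so its sign in MV4-11 follows from its selection; without it, 7 of 9 autophagy genes lay above 0 in MV4-11 (median log2 change 0.12) and 8 of 9 in THP-1 (median 0.34).

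SQSTM1 (ENSG00000161011, chromosome 5, 179806398 to 179838078, plus strand), the p62 cargo receptor, had opposite signs in the lines. In THP-1 it had 31.4, 34.3 and 22.1 FPKM in shCYTH4 libraries against 18.8, 20.8 and 21.6 in shControl libraries (log2 0.41, SE 0.17, edgeR adjusted p = 0.238). In MV4-11 it had 21.5, 17.6 and 19.6 FPKM in shCYTH4 libraries against 27.3, 23.6 and 24.1 in shControl libraries (log2 -0.44, SE 0.17, adjusted p = 0.251). Neither pair of groups overlapped, although THP-1 shCYTH4 replicate 3 lay just above the highest shControl library. Without that library the THP-1 change was 0.60 (adjusted p = 0.0191). Of the genes that build the conjugation machinery, ATG5 had a log2 change of 0.52 in THP-1 (edgeR adjusted p = 0.212) and 0.02 in MV4-11. Without MV4-11 shCYTH4 replicate 1 the MV4-11 change of ATG5 was -0.202. ATG7 had log2 changes of -0.26 in THP-1 and -0.14 in MV4-11. BECN1, a subunit of the autophagy lipid kinase complex, lay within 0.1 of 0 in both lines.

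**Figure D3:**
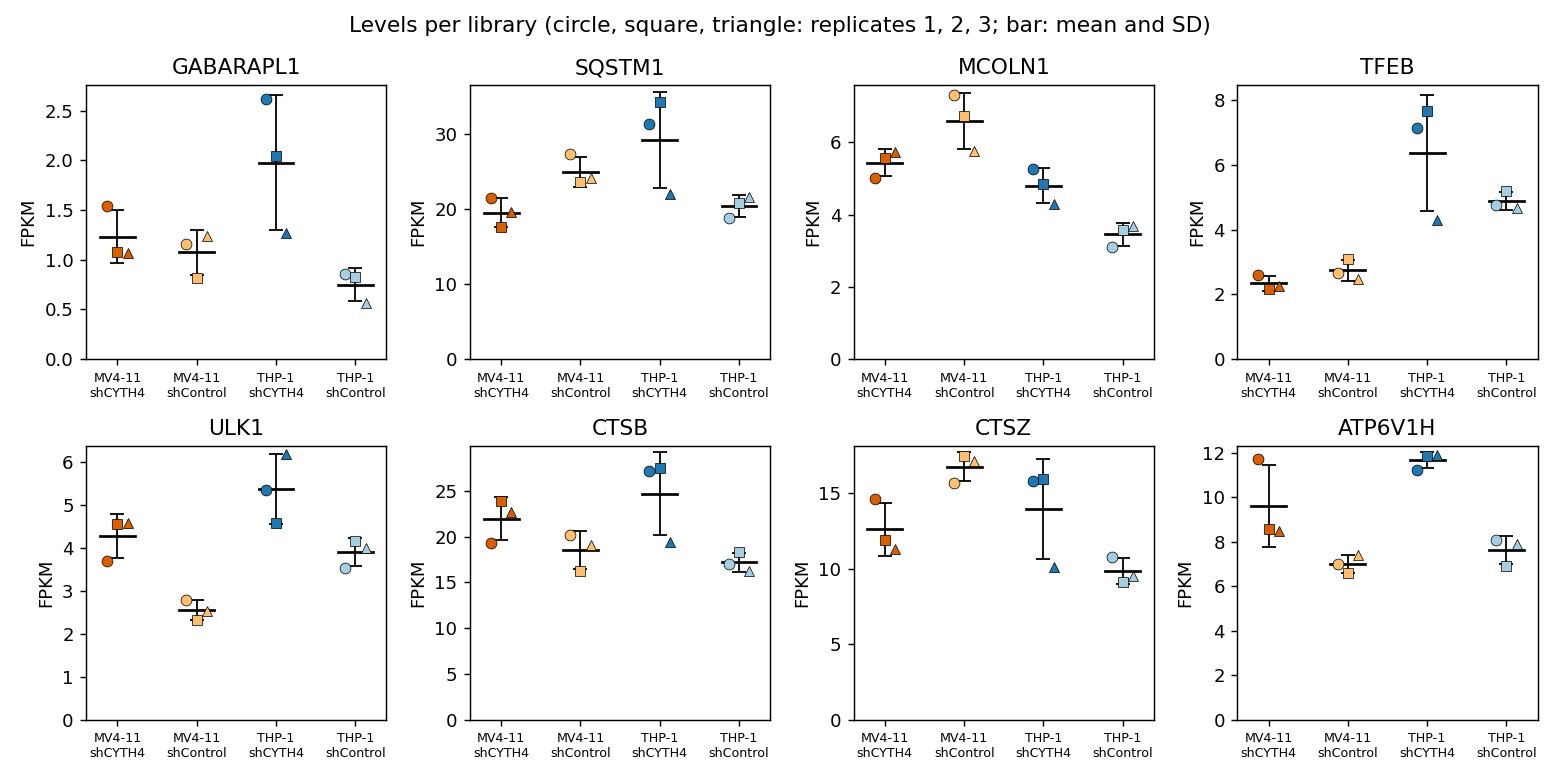
FPKM of 8 genes in each library, with the symbol shape giving the replicate number and bars giving the mean and SD of 3 libraries. In THP-1 shCYTH4, replicate 3 (triangle) is the lowest library for GABARAPL1, SQSTM1, MCOLN1, TFEB, CTSB and CTSZ, and not for ULK1 or ATP6V1H.

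Of the membrane proteins, none passed the test in either line. MCOLN1 (ENSG00000090674, chromosome 19, 7522624 to 7534009, plus strand), the calcium channel of the lysosome, had 5.26, 4.85 and 4.30 FPKM in THP-1 shCYTH4 libraries against 3.10, 3.58 and 3.67 in THP-1 shControl libraries (log2 0.36, SE 0.17, edgeR adjusted p = 0.302). In MV4-11 it had 5.02, 5.57 and 5.73 FPKM in shCYTH4 libraries against 7.31, 6.73 and 5.78 in shControl libraries (log2 -0.36, SE 0.17, adjusted p = 0.343). Its groups did not overlap in either line, and its sign differed between them. NPC1, which moves cholesterol out of the lysosome, had 5.13, 5.09 and 4.29 FPKM in THP-1 shCYTH4 libraries against 3.20, 3.33 and 3.08 in THP-1 shControl libraries (log2 0.48, SE 0.19, edgeR adjusted p = 0.219). Its log2 change in MV4-11 was 0.09, and 0.308 without MV4-11 shCYTH4 replicate 1. LAMP1, whose promoter holds the most CACGTG copies, had a log2 change of 0.07 in THP-1 and -0.23 in MV4-11 (adjusted p = 0.857 and 0.449), LAMP2 of 0.0042 and 0.10, and CLN3 of 0.25 and -0.06.

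The transcription factors likewise did not pass. TFEB had 7.14, 7.66 and 4.31 FPKM in THP-1 shCYTH4 libraries against 4.76, 5.20 and 4.67 in THP-1 shControl libraries (log2 0.27, SE 0.19, edgeR adjusted p = 0.549). Replicates 1 and 2 lay above all shControl libraries and replicate 3 below them; without replicate 3 the change was 0.51 (adjusted p = 0.0607). In MV4-11 it had 2.59, 2.16 and 2.26 FPKM in shCYTH4 libraries against 2.65, 3.09 and 2.48 in shControl libraries (log2 -0.31, SE 0.20, adjusted p = 0.501). TFE3 had a log2 change of 0.13 in THP-1 and -0.19 in MV4-11 (adjusted p = 0.769 and 0.608), with overlapping groups in both.

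Among the proton pump subunits the largest change was that of ATP6V1H, a regulatory subunit of the V1 sector, which had 11.2, 11.9 and 11.9 FPKM in THP-1 shCYTH4 libraries against 8.10, 6.89 and 7.90 in THP-1 shControl libraries. The groups did not overlap (log2 0.50, SE 0.14, edgeR adjusted p = 0.0856), and 4 of 22 alternative settings called it. In MV4-11 ATP6V1H had 11.7, 8.55 and 8.48 FPKM in shCYTH4 libraries against 7.00, 6.58 and 7.39 in shControl libraries (log2 0.38, SE 0.14, adjusted p = 0.248), and without replicate 1 of MV4-11 shCYTH4 the change was 0.22 (adjusted p = 0.514). ATP6AP1, an accessory subunit, had 20.4, 24.9 and 26.6 FPKM in MV4-11 shCYTH4 libraries against 32.2, 31.0 and 28.9 in MV4-11 shControl libraries (log2 -0.43, SE 0.14, edgeR adjusted p = 0.153) and a log2 change of -0.14 in THP-1. ATP6V1A, a catalytic subunit, had a log2 change of 0.26 in THP-1 and 0.22 in MV4-11, ATP6V0D1 of 0.02 and -0.17, and ATP6V1B2 of -0.11 and 0.09. These 5 pump subunits did not share a direction in either line. Of 12 further pump genes, part of the wider list given below, 11 lay above 0 in THP-1 (median log2 change 0.21) and 5 in MV4-11 (median -0.05). In THP-1, 6 of the 12 (50%) had all shCYTH4 libraries above all shControl libraries in FPKM and 1 (8.33%) had them all below. Over all tested genes the shares were 17.1% and 6.63%. With edgeR 0 of the 12 were called in either line, against 1.65% of all tested genes in THP-1 and 1.13% in MV4-11.

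The 19 hydrolases and soluble proteins ranged from -0.33 (GUSB) to 0.41 (CTSB) in THP-1 and from -0.49 (CTSZ) to 0.37 (HEXA) in MV4-11, and none passed the test. The protease CTSB, cathepsin B, had 27.2, 27.5 and 19.4 FPKM in THP-1 shCYTH4 libraries against 17.0, 18.4 and 16.3 in THP-1 shControl libraries (log2 0.41, SE 0.16, edgeR adjusted p = 0.231). CTSL, cathepsin L, had 13.8, 14.4 and 12 FPKM in THP-1 shCYTH4 libraries against 9.88, 8.82 and 9.46 in THP-1 shControl libraries (log2 0.40, SE 0.15, adjusted p = 0.185). CTSZ, cathepsin Z, had 15.8, 15.9 and 10.1 FPKM in THP-1 shCYTH4 libraries against 10.8, 9.15 and 9.53 in THP-1 shControl libraries (log2 0.40, SE 0.16, adjusted p = 0.243), with replicate 3 inside the control range. In MV4-11 CTSZ had 14.6, 11.9 and 11.3 FPKM in shCYTH4 libraries against 15.7, 17.5 and 17.1 in shControl libraries, groups that did not overlap (log2 -0.49, SE 0.16, edgeR adjusted p = 0.189). Without THP-1 shCYTH4 replicate 3 the change of CTSZ was 0.60 in THP-1 (adjusted p = 0.0112) and -0.47 in MV4-11 (adjusted p = 0.0349). This was the 1 of 22 alternative settings that called CTSZ in either line. TPP1, a tripeptidyl peptidase, had 41.6, 60.4 and 64.2 FPKM in MV4-11 shCYTH4 libraries against 74.8, 61.4 and 68.3 in MV4-11 shControl libraries, and the lowest of these was replicate 1, the library apart from its group (log2 -0.38, adjusted p = 0.316). Without it the change of TPP1 was -0.20 (adjusted p = 0.610).

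The response of MV4-11 was then set against that of THP-1, as the log2 change in MV4-11 minus that in THP-1. With edgeR 0 of the 41 genes were called, against 0.866% of all tested genes; 7 (17.1%) had an unadjusted p under 0.05, as did 14.2% of all tested genes, and DESeq2 called 2, CTSZ and SQSTM1, against 3.71% of all genes. The difference was -0.89 for CTSZ (SE 0.23, edgeR adjusted p = 0.0903), -0.84 for SQSTM1 (SE 0.23, adjusted p = 0.112), -0.72 for MCOLN1 (SE 0.23, adjusted p = 0.168) and -1.17 for GABARAPL1 (SE 0.41, adjusted p = 0.198). CTSD, cathepsin D, and CTSA, a carboxypeptidase, had differences of -0.56 and -0.43, and CTSS, cathepsin S, had 0.60 (adjusted p = 0.240, 0.301 and 0.232). For TFEB it was -0.58 (adjusted p = 0.357), for TFE3 -0.32, for GABARAP -0.17, for GABARAPL2 0.18 and for MAP1LC3B -0.0028. Over the 41 genes the median difference was -0.19, with 28 below 0, against 0.02 over all genes. It was -0.077 without MV4-11 shControl replicate 1, -0.12 without THP-1 shControl replicate 1 and -0.11 with the GC correction described next. Without THP-1 shCYTH4 replicate 3, 6 genes were called, against 7.41% of all genes: MCOLN1, CTSZ, TFEB, GABARAPL1 and SQSTM1 had lower values of the difference and CTSS a higher one. Of the 8 monocyte lineage genes, LYZ fell in MV4-11 (log2 -0.68, edgeR adjusted p = 0.0107) and rose in THP-1 (log2 0.98, adjusted p = 0.00188), while FCGR1A fell in THP-1 (log2 -0.71, adjusted p = 0.0331) and had a log2 change of 0.34 in MV4-11 (adjusted p = 0.318). CD33, CD14, SPI1, CSF1R, MPO and ITGAM did not pass in either line; in THP-1 CD14, CSF1R and MPO lay below 0 and CD33, SPI1 and ITGAM above it, and in MV4-11 CD14 alone of these lay above 0. The whole list summed to 1301 to 1361 FPKM in MV4-11 shCYTH4 against 1856 to 2077 in MV4-11 shControl libraries, and to 867 to 1015 FPKM in THP-1 shCYTH4 against 545 to 616 in THP-1 shControl libraries, sums to which LYZ gave the most. The macrophage marker list summed to 7.76 to 8.36 FPKM in MV4-11 shCYTH4 against 7.80 to 8.51 in MV4-11 shControl libraries, and 13.7 to 15.4 FPKM in THP-1 shCYTH4 against 12.8 to 14.8 in THP-1 shControl libraries; 6 of its 10 genes reached 1 FPKM in any library. The part of these markers in the values of the 41 genes was not tested.

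Deviations of single libraries from their group means went with the base composition of the transcripts. Over the 41 genes, the deviation of a library from its group mean had a Spearman rho with transcript GC content of -0.46 to 0.56 in the MV4-11 shCYTH4 libraries and of -0.79 to 0.65 in the MV4-11 shControl libraries. The range was -0.42 to 0.46 in the THP-1 shCYTH4 libraries and -0.75 to 0.67 in the THP-1 shControl libraries; these are descriptions over genes of the same library, with no test. The log2 change itself had a rho with GC content of -0.50 over the 41 genes in MV4-11 (-0.43 over 10503 genes) and of 0.05 in THP-1 (-0.19 over 10503 genes). With a GC correction of each library, a setting chosen after seeing the data, edgeR called ULK1 in MV4-11 (log2 0.83, adjusted p = 0.0127), against 3.22% of all genes. In THP-1 the corrected fit called GABARAPL1 (1.25, adjusted p = 0.0241), MCOLN1 (0.43, adjusted p = 0.0276), CTSB (0.45, adjusted p = 0.0313) and SQSTM1 (0.47, adjusted p = 0.0422), against 5.78% of all genes. For the difference between the lines it called MCOLN1 (-0.64, adjusted p = 0.0290) and SQSTM1 (-0.74, adjusted p = 0.0359), against 3.36%.

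**Figure D4:**
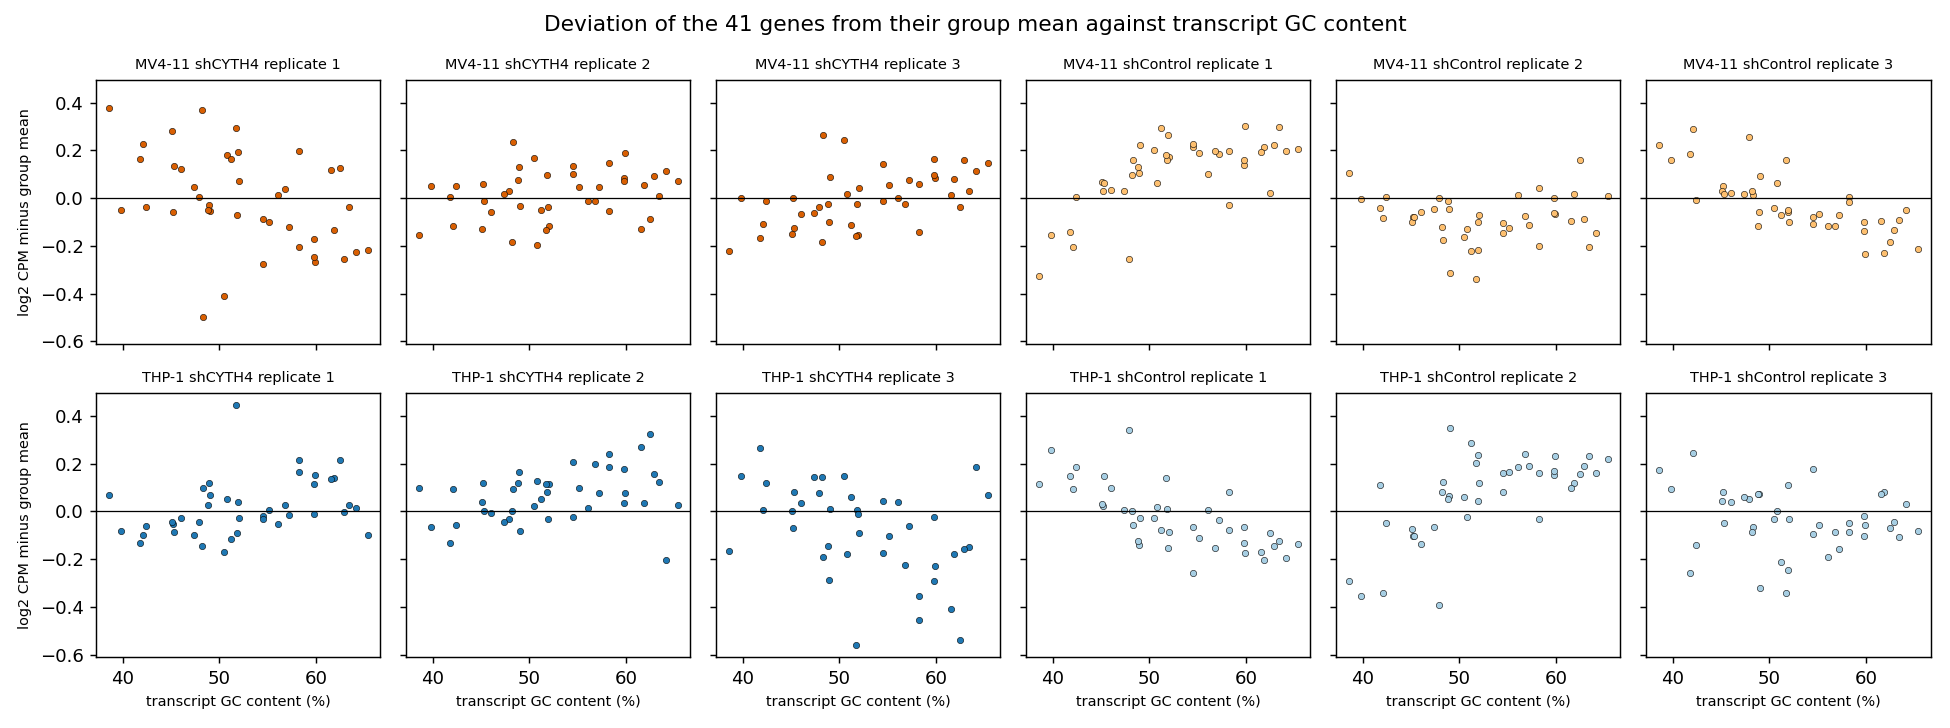
Deviation of each of the 41 genes from its group mean (log2 CPM) against the GC content of its transcripts (%), with 1 panel per library. In MV4-11 shControl replicate 1 and THP-1 shControl replicate 2 GC-rich genes lie above 0, and in MV4-11 shControl replicate 3 and THP-1 shControl replicate 1 they lie below it.

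Between the lines themselves, MV4-11 shControl libraries set against THP-1 shControl libraries, 17 of the 41 genes were called with edgeR, 4 higher and 13 lower in MV4-11, against 51.4% of all tested genes (24.6% higher and 26.7% lower). The share called was below that of all genes. In FPKM, 7 genes had all MV4-11 libraries above and 15 all below those of THP-1 (17.1% and 36.6%), against 29.4% and 31.2% of all genes. Of the 19 hydrolases and soluble proteins, 9 were lower and 2 higher in MV4-11. CTSL (ENSG00000135047, chromosome 9, 87724051 to 87731469, plus strand) had 0.20, 0.18 and 0.224 FPKM in MV4-11 against 9.88, 8.82 and 9.46 in THP-1 (log2 -5.46, SE 0.18, edgeR adjusted p = 3.47e-12). CTSL passed the expression filter through THP-1 alone, so the sign of its difference follows from its selection. CTSS, the cathepsin of antigen-presenting cells, had 4.34, 4.93 and 5.92 FPKM in MV4-11 against 34.7, 31.0 and 25.4 in THP-1 (log2 -2.57, SE 0.17, adjusted p = 4.46e-09). PSAP had 85.4, 69.6 and 74.7 FPKM in MV4-11 against 218, 253 and 285 in THP-1 (log2 -1.70, SE 0.15, adjusted p = 1.79e-07). CTSH, NPC2, GAA, HEXA, ASAH1 and GRN were also lower, by log2 differences of -1.16 to -0.51. Of the soluble proteins, CTSZ (log2 0.79, adjusted p = 0.000838) and CTSD (log2 0.55, adjusted p = 0.00647) were higher in MV4-11.

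GABARAP had 105, 77.9 and 88.5 FPKM in MV4-11 shControl libraries against 30.2, 35.7 and 26.5 in THP-1 shControl libraries, a fold of 2.98 (log2 1.58, SE 0.17, edgeR adjusted p = 9.43e-07). Lower in MV4-11 were the autophagy genes ULK1 (log2 -0.59, adjusted p = 0.00693), ATG5 (-0.53, adjusted p = 0.0361, called in 12 of 22 alternative settings and with overlapping groups in FPKM) and GABARAPL2 (-0.41, adjusted p = 0.0484, called in 9 of 22 alternative settings). MAP1LC3B and GABARAPL1 had log2 differences of 0.26 and 0.53 that did not pass. MCOLN1 was the 1 membrane protein called, with 7.31, 6.73 and 5.78 FPKM in MV4-11 against 3.10, 3.58 and 3.67 in THP-1 (log2 0.95, SE 0.17, adjusted p = 0.000175). TFEB had 2.65, 3.09 and 2.48 FPKM in MV4-11 against 4.76, 5.20 and 4.67 in THP-1 (log2 -0.81, SE 0.20, adjusted p = 0.00271), while TFE3 had a difference of 0.26 (adjusted p = 0.170). None of the 5 pump subunits was called (adjusted p of at least 0.0730).

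**Figure D5:**
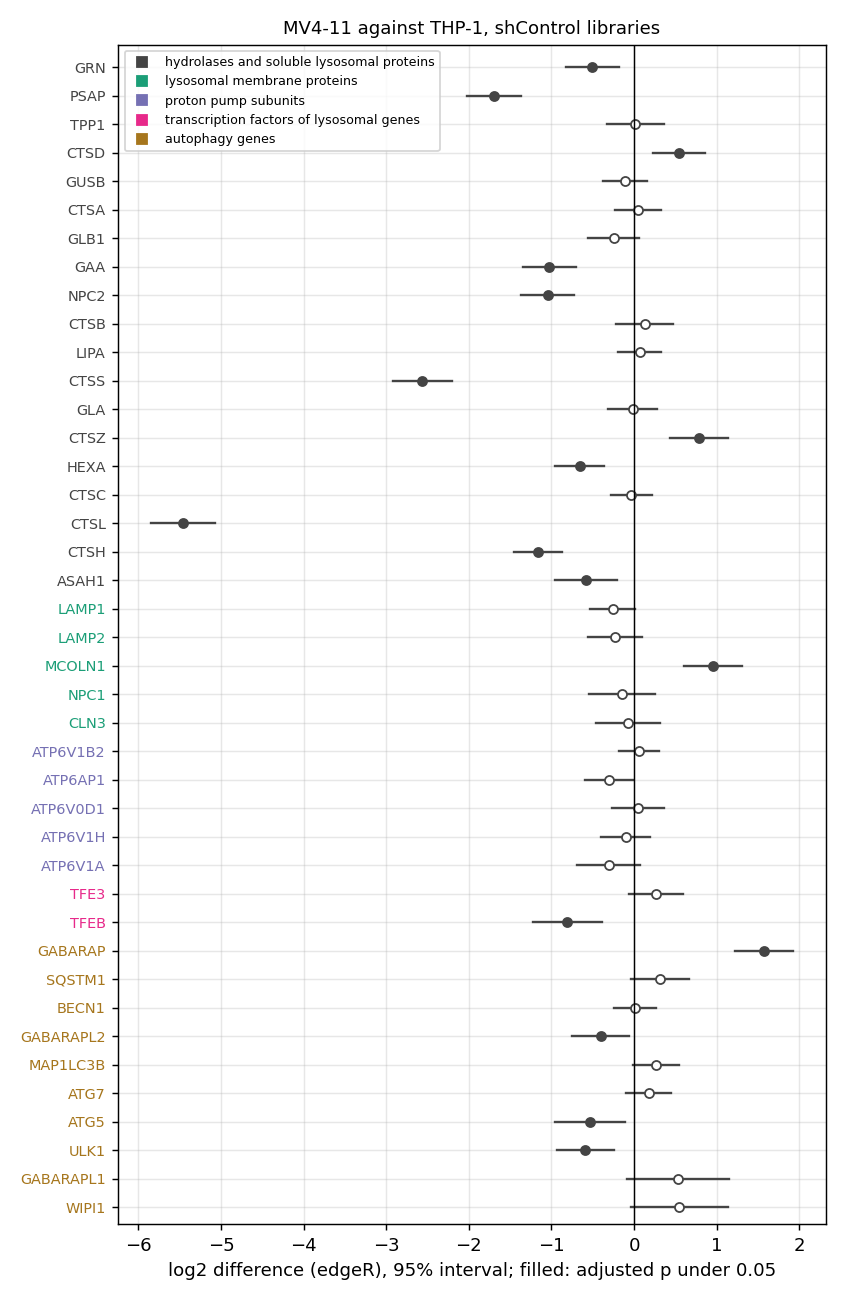
Log2 difference between the lines (MV4-11 against THP-1, shControl libraries) of the 41 genes with 95% intervals from edgeR; filled points have an adjusted p under 0.05. CTSL at -5.46 and CTSS at -2.57 lie furthest left and GABARAP at 1.58 furthest right, while the proton pump subunits lie close to 0 and are all unfilled.

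Another 122 genes of lysosome, pump, regulators and autophagy were counted in the same way, 111 of them expressed highly enough to be tested. In THP-1, 1 rose and 2 fell, against 1.65% of all genes, and the median log2 change was 0.15, with 77 of 111 above 0. FUCA1, a lysosomal fucosidase, rose: it had 7.46, 6.40 and 8.78 FPKM in THP-1 shCYTH4 libraries against 4.52, 4.05 and 3.36 in THP-1 shControl libraries (log2 0.81, SE 0.15, edgeR adjusted p = 0.0209). CTSW, a cathepsin of cytotoxic lymphocytes, fell to 1.02, 0.848 and 0.467 FPKM in THP-1 shCYTH4 libraries, against 2.19, 2.11 and 1.85 in THP-1 shControl libraries (log2 -1.5, SE 0.27, adjusted p = 0.0159); it overlaps FIBP on the other strand. ARSA, the lysosomal arylsulfatase A, fell to 5.06, 4.84 and 5.92 FPKM in THP-1 shCYTH4 libraries, against 7.06, 8.46 and 7.73 in THP-1 shControl libraries (log2 -0.67, SE 0.15, adjusted p = 0.0379). The call held in 17 of 22 alternative settings for FUCA1, in 19 for CTSW and in 11 for ARSA. In MV4-11, 1 of the 111 rose, against 1.13% of all genes: DNASE2, the acid nuclease of lysosomes, had 1.28, 1.31 and 0.989 FPKM in shCYTH4 libraries against 0.412, 0.491 and 0.550 in shControl libraries (log2 1.21, SE 0.26, edgeR adjusted p = 0.0348), a call that held in 11 of 21 alternative settings and was lost without MV4-11 shCYTH4 replicate 1 (log2 1.18, adjusted p = 0.0895). The difference between the responses called 0 of the 111 with edgeR, against 0.866% of all genes. An unadjusted p under 0.05 was found for 13 (11.7%), against 14.2% of all genes, and DESeq2 called 3, against 3.71%.

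Between the lines 22 of the 111 were higher and 33 lower in MV4-11 (24.6% and 26.7% of all tested genes). PPT1, the lysosomal palmitoyl-protein thioesterase, had 96.8, 107 and 104 FPKM in MV4-11 shControl libraries against 1508, 1404 and 1698 in THP-1 shControl libraries (log2 -3.88, SE 0.12, edgeR adjusted p = 2.26e-12). DNASE2 had 0.412, 0.491 and 0.550 FPKM in MV4-11 against 13.1, 14.1 and 11.3 in THP-1 (log2 -4.69, SE 0.29, adjusted p = 3.15e-09), and CTSV, a cathepsin L relative, had 0.0348, 0.0180 and 0.0133 FPKM in MV4-11 against 1.72, 0.933 and 1.08 in THP-1 (log2 -5.64, adjusted p = 2.4e-09). RRAGB, a Rag GTPase that tethers mTORC1 to lysosomes, was at 0, 16 and 20 estimated counts in MV4-11 against 887, 646 and 645 in THP-1 (log2 -5.87, adjusted p = 6.5e-05). Higher in MV4-11 were FUCA1, with 18.2, 19.3 and 18.1 FPKM against 4.52, 4.05 and 3.36 in THP-1 (log2 2.24, adjusted p = 1.18e-08), and CTNS, the cystine transporter (log2 1.58, adjusted p = 2.51e-05). ULK2, a relative of ULK1, was also higher (log2 1.5, adjusted p = 1.53e-05), as was FUNDC1, a receptor for the autophagy of mitochondria. FUNDC1 had 7.32, 7.37 and 7.69 FPKM in MV4-11 against 0.137, 0.0714 and 0.0391 in THP-1, where 14, 8 and 4 estimated counts lay behind these values (log2 6.43, adjusted p = 4.6e-07). Among the shControl libraries, RRAGB, CTSV and DNASE2 reached 1 FPKM in THP-1 alone, and FUNDC1 and ULK2 in MV4-11 alone. Where a gene passes the expression filter through 1 line only, the sign of its difference follows from that selection.

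How the reads were assigned limits some of the levels above, because the sources used here do not say whether counting used the strand. Of the 41 genes, 13 overlap another gene with a mean of at least 1 FPKM. MCOLN1 overlaps PNPLA6 and GLB1 overlaps TMPPE on the same strand, CTSD overlaps a further gene known by its identifier alone, and CTSA, CTSZ, GLA, NPC1, CLN3, SQSTM1, MAP1LC3B, ATG5, ATG7 and BECN1 overlap genes on the other strand. GUSB has pseudogene copies, of which GUSBP14 had a mean of 6.53 FPKM, so its level is uncertain.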

How the data were processed

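Poly(A) RNA of 12 libraries was sequenced with strand-marked libraries, per the labels' protocols. The deposited table lists 34626 genes with an estimated count and an FPKM value per library, per the file headers; the estimated counts deposited are whole numbers with no normalization stated, and the FPKM values are as the authors deposited them, with a denominator that is not stated. Low counts pile up at multiples of 4 (13678 values of 4 against 6332 of 3), so 1 count is not 1 fragment. The submitters' processing notes name StringTie, fastp and edgeR, with no version or role. Aligner, annotation and build were not given in the sources used here; all 41 genes lie at positions that overlap those of GENCODE release 29 for GRCh38, 7 with the same start and end. Column names carry SC and Sh, read as shControl and shCYTH4, which the labels do not spell out.

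The 12350 genes that reached 1 FPKM in 3 or more libraries were tested on the estimated counts by edgeR's robust quasi-likelihood test (version 4.0.16, R 4.3.3) after TMM scaling (factors 0.916 to 1.08), in 1 model of 4 group means with 8 residual degrees of freedom. The p-values were adjusted by Benjamini-Hochberg across all tested genes, and a gene was called under 0.05; genes to which DESeq2 gave no adjusted p were left out of its counts. The code was tested on simulated data. Alternatives were DESeq2 1.42.0, quantile normalization with voom (limma 3.58.1), no filter, limma on log2(FPKM + 1) and log2(FPKM + 0.1), each library left out, the 2 groups alone, a replicate block and counts divided by 4. A GC correction (a smooth of each library's deviation against the GC content of GENCODE transcripts, span 0.3) and the 10503 genes that have a GC value were added after seeing the data.

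The 41 genes, the role groups and the wider list were chosen with earlier results of these data known. Named are, per role group and line, the 2 genes with the largest change, every called gene, TFEB, TFE3 and the LC3 and GABARAP genes throughout, the gene with the highest mean in each role, up to 3 called genes per role and direction between the lines, and up to 4 called genes per direction of the wider list; others were chosen after their values were seen. Values are mean ± SD with n = 3, SE is that of the fitted log2 value, and intervals cover the spread between these libraries only. Protein sequences were not used here.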

Additional observations from a re-analysis of the deposited data

How the results depend on the processing

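Calls moved with the setting, and so did the share of all tested genes called. In MV4-11 that share was 1.13% as reported, 3.66% with DESeq2, 1.46% and 1.13% with limma on log2(FPKM + 1) and log2(FPKM + 0.1). The GC correction gave 3.22%. In THP-1 it was 1.65%, 5.27%, 3.86%, 2.04% and 5.78% in the same order, and 1.04% with the 2 groups alone. For the difference it was 0.866%, 3.71% with DESeq2 and 3.36% with the GC correction. In MV4-11 the count of the 41 genes called was 0 and became 1 with DESeq2, with limma on log2(FPKM + 1), with limma on log2(FPKM + 0.1) and with the GC correction (ULK1 in each), and ran from 0 to 2 when single libraries were left out. In THP-1 it was 1 and became 2 with DESeq2, 3 with limma on log2(FPKM + 1), 2 with limma on log2(FPKM + 0.1), 4 with the GC correction and 0 with the 2 groups alone; leave-one-out counts ran from 0 to 4. The difference between the responses had 0 calls, 2 with DESeq2, 2 with the GC correction and 0 to 6 with single libraries left out, and the comparison of the lines called 14 to 19 with single libraries left out, against 17. A group with a library left out keeps 2 and shares the spread of the others. In leave-one-out fits the share of all genes called ran from 0.57% to 3.35% in MV4-11 and 0.123% to 6.72% in THP-1. It ran from 0.325% to 7.41% for the difference and 43.6% to 54.6% between the lines.

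The median change of the 41 genes in THP-1 was 0.13 and moved to 0.24 with quantile normalization, 0.24 with limma on log2(FPKM + 1) and 0.25 with log2(FPKM + 0.1), where the median of all genes stood at 0.0032, 0.078 and 0.098, against -0.0087; it lay between 0.086 and 0.21 with single libraries left out. In MV4-11 it was -0.01 and moved to 0.069 with log2(FPKM + 0.1), where the median of all genes was 0.072; leave-one-out values ran from -0.075 to 0.049. For the difference it was -0.19, with leave-one-out values of -0.24 to -0.077.

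For the wider list, MV4-11 calls (1) became 3 with DESeq2, 0 with quantile normalization, 0 with limma on log2(FPKM + 1), 0 with the 2 groups alone, 3 with the GC correction and 2 over the genes with a GC value, and 0 to 4 in leave-one-out fits. THP-1 calls (3) became 10 with DESeq2, 6 with quantile normalization, 8 and 7 with limma on log2(FPKM + 1) and log2(FPKM + 0.1), 11 with the GC correction and 0 to 8 in leave-one-out fits; the share of all genes called moved too, with 1.65% as reported, 5.27% with DESeq2, 2.33% with quantile normalization, 3.86% and 2.04% with limma and 5.78% with the GC correction. The difference (0) became 3 with DESeq2, 1 with limma on log2(FPKM + 1), 4 with the GC correction and 0 to 2 in leave-one-out fits. In MV4-11 the share of all genes called was 1.13% as reported, 3.66% with DESeq2, 0.874% with quantile normalization and 1.46% with limma on log2(FPKM + 1). It was 1.69% with the 2 groups alone, 3.22% with the GC correction and 1.41% over the genes with a GC value. For the difference it was 0.866%, 3.71% with DESeq2, 1.31% with limma on log2(FPKM + 1) and 3.36% with the GC correction. Leave-one-out shares of all genes are those given above. The cause of these moves was not tested.

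CYTH4 in THP-1 ran from -1.03 to -0.67 over the leave-one-out fits and lost its call in 5 of them; in MV4-11 it ran from -0.091 to 0.16 and took the other sign in 4. Values near 0 also took the other sign. GABARAPL1 in MV4-11 ran from -0.058 (without MV4-11 shCYTH4 replicate 1) to 0.22 in leave-one-out fits, and the difference for GABARAPL2 from -0.052 to 0.28. The difference for MAP1LC3B was 0.036 with quantile normalization and ran from -0.094 to 0.059 in leave-one-out fits.

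No pairing of libraries by shared replicate number was seen: the correlation of deviations was -0.214 to 0.0945 over 6 pairs, and 0 of them exceeded 0.1. Pairs with different numbers ran from -0.217 to 0.289. Since the deviations also went with GC content, the check cannot exclude paired cultures. With a replicate block as a term, the 41 genes had 0 calls in THP-1, 0 in MV4-11, 0 for the difference and 15 between the lines. The shares of all tested genes called were then 0.186%, 0.761%, 0.381% and 49.5% in that order. In this setting the wider list had 0 calls in THP-1, and CYTH4 in THP-1 was -0.86 and not called.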

Other observations

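The 7 genes with TCACGTG in their promoters (ATP6V0D1, CLN3, CTSA, CTSD, GAA, LAMP1 and MCOLN1) lay below 0 in MV4-11 in 7 of 7 cases, with a median log2 change of -0.23. Their values ran from -0.36 to -0.0093, and with edgeR 0 of the 7 were called, against 1.13% of all tested genes. Of the 25 other genes with a promoter entry, 12 lay above 0 (median -0.07). With the GC correction, chosen after seeing the data, 5 of the 7 lay below 0 and their median was -0.13. In THP-1, 6 of the 7 lay above 0 (median 0.13), as did 16 of the 25 others (median 0.13). The transcripts of the 7 genes had a median GC content of 59.9% against 51.2% for the others. The groups of genes were small and chosen after their values were seen, so these are descriptions without a test.

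DNASE2, called in MV4-11, had 28.5, 31.9 and 13.9 FPKM in THP-1 shCYTH4 libraries against 13.1, 14.1 and 11.3 in THP-1 shControl libraries. Replicates 1 and 2 lay above the controls and replicate 3 within their range. The log2 change was 0.84 (edgeR adjusted p = 0.0976), and 1.14 without replicate 3 (adjusted p = 0.00127).

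Summed over the 41 genes, transcript levels were 1253 to 1382 FPKM in THP-1 shCYTH4 libraries against 1126 to 1196 in THP-1 shControl libraries, and 882 to 916 FPKM in MV4-11 shCYTH4 against 859 to 987 in MV4-11 shControl libraries. In THP-1 the sums made up 0.414% to 0.459% of all FPKM in shCYTH4 against 0.349% to 0.365% in shControl libraries. FPKM values also depend on scaling: over all genes in THP-1 the median change was 0.098 in log2(FPKM + 0.1), against -0.0087 with edgeR. The sums are dominated by the soluble proteins, whose range in THP-1 was 891 to 1003 FPKM in shCYTH4 and 810 to 883 in shControl libraries. For the autophagy genes alone, the ranges were 129 to 138 FPKM in THP-1 shCYTH4 against 98.8 to 104 in THP-1 shControl libraries, and 170 to 207 FPKM in MV4-11 shCYTH4 against 147 to 180 in MV4-11 shControl libraries.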
